A study of Homo sapiens with 4 samples.

Results

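The respiratory chain and the ATP synthase of the mitochondrial inner membrane are described here through 102 gene rows, of 19734 in the deposited table. The rows were chosen by a gene name pattern, with earlier results of these data known. They are the 13 protein-coding genes of the mitochondrial genome and 89 nuclear rows named for subunits of complexes I to V. The name pattern also took in copies, read-through rows and related genes such as ATP5EP2, UQCRHL and NDUFC2-KCTD14, and it did not take in CYC1, the nuclear gene of cytochrome c1 in complex III. Nor did it take in C14orf2 and USMG5, which were listed with complex V assembly and regulation. Sums and ratios below leave these genes out. RNA was measured in BE(2)C:MYCN-ORF cells, a line of the human neuroblastoma culture BE(2)C that carries a MYCN open reading frame. All groups shared that line, and the labels do not give the promoter of the introduced frame or the number of clones. The cells received an siRNA and a miRNA mimic together and were harvested 48 hours later, and polyA-selected RNA was sequenced. The 4 groups were siMYCN with let-7a, siMYCN with the control mimic miRCon, the control siRNA siCon with let-7a, and siCon with miRCon, with 1 library each and no replicate.

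The respiratory chain passes electrons from NADH and succinate through complexes I to IV to oxygen and pumps protons out of the matrix, and complex V, the ATP synthase, lets them back in to make ATP. Complex II is built from nuclear genes alone, whereas the other complexes join subunits made inside the mitochondrion to subunits imported from the cytosol. MYC proteins bind E-boxes of many genes, mitochondrial ones among them, and let-7 miRNAs pair with sites in the 3' UTRs of nuclear mRNAs.

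Values are the deposited natural logs turned back to a linear scale, on which they resembled TPM, so that levels can be set side by side per transcript length. They are called TPM-like values. Fold changes were taken as differences of log2(value + 1), so that for low genes they come out too small. Each treatment was compared in a pair of libraries at each level of the other treatment, and the 2 pairs of a treatment share no library. The siMYCN and let-7a comparisons use the same 4 libraries and are not independent of each other. Genes with a mean value of at least 5 were tested with limma on siRNA and mimic as additive terms. With 1 library a group, its error is the departure from additivity (1 residual degree of freedom) moderated by that of all genes (4.30 prior degrees of freedom), so a p-value is no replicate check. A gene was called at a Benjamini-Hochberg adjusted p under 0.05 over all 9324 genes tested. Values without overlap between siMYCN and siCon are described below for single genes and for ratios of sums. With 2 libraries against 2, such an order gives p = 0.333 in a two-sided exact permutation test. The share of all genes tested with such an order was not counted. Many nuclear genes were named for large differences of the same sign in both pairs, which favours it, so such an order only describes values.

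Library totals of the gene rows lay between 855610 and 861824, and read depth is not kept by such values. MYCN, the siRNA target, had TPM-like values of 1197.25 and 1238.33 in the siMYCN libraries, against 1432.82 and 1448.54 in the siCon libraries. Its log2 fold change with siMYCN was -0.24 ± 0.047 (SE, n = 4 libraries), which did not pass limma's test (Benjamini-Hochberg adjusted p = 0.0584). All 10 markers of noradrenergic neuroblastoma were at 6.01 or more in every library. Their summed value was 3287 and 3128 in the siMYCN libraries and 3582 and 3448 in the siCon libraries. Among fibroblast markers, COL1A2 was at 0.185 or less and LUM reached 123, and the 5 of them summed to 142 and 179 in siMYCN libraries and to 137 and 167 in siCon libraries. Of the 4 epithelial markers 3 were at 0 in every library, and the 5 blood markers summed to 3.65 or less. The part of these markers in the results below was not tested. Across all genes tested, siMYCN had 193 genes called higher (2.07%) and 127 called lower (1.36%). The let-7a mimic had 0 called in either direction (0%), with 697 genes (7.48%) at an unadjusted p under 0.05 in limma, against 2461 (26.4%) for siMYCN.

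Mitochondrially encoded mRNAs dominated the pool. The 13 genes took 29.3% of the library total in siMYCN with let-7a, 28.4% in siMYCN with miRCon, 32.1% in siCon with let-7a and 31.7% in siCon with miRCon. The 89 nuclear rows together took 1.74% and 1.76% in the siMYCN libraries and 1.72% in each of the siCon libraries. Both siMYCN libraries thus had a lower mitochondrial share than both siCon libraries, while the nuclear share of this total lay within a narrow range. A lower mitochondrial share raises the other shares of the same total. Of the total without mitochondrial transcripts, the nuclear rows took 2.47% and 2.46% with siMYCN (let-7a, then miRCon). With siCon they took 2.54% and 2.51%. In RNA from a whole culture, fewer cells with a high level and less RNA per cell cannot be told apart.

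The levels of the 13 mRNAs were uneven although each strand of the mitochondrial genome is transcribed as a long precursor that is then cut. MT-ATP6, MT-ATP8, MT-CO1 and MT-CO3 each held between 11.4% and 14.8% of the mitochondrial sum in every library. MT-ND5 and MT-ND6 each held between 2.27% and 2.96%. MT-ND6, a complex I subunit, is the single protein gene encoded on the other strand, from 14149 to 14673 of chromosome M in GRCh38. The labels name a kit that is not stated to keep strand, so reads of MT-ND6 and of transcripts opposite to it cannot be told apart. The RNA was polyA-selected, and how well each of the 13 mRNAs was captured was not measured, so levels here may reflect capture too. MT-ATP8 and MT-ATP6, subunits of the ATP synthase membrane part, come from one mRNA and share 46 bases at chrM:8527-8572, so reads from that stretch belong to both. MT-ND4L and MT-ND4 share 7 bases in the same way. The shared stretch of the ATP synthase pair is shown because their values rest partly on the same reads. It is from the GENCODE 29 transcripts (GRCh38, plus strand), and its capitals mark that every base is in both reading frames.

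MT-ATP8/MT-ATP6 overlap: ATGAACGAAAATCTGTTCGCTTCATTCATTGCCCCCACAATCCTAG

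With siMYCN, most mitochondrially encoded mRNAs were lower in both pairs, and MT-CO1 fell. MT-CO1, the catalytic subunit of complex IV, lies from 5904 to 7445 of chromosome M on the plus strand. Its TPM-like value was 33747 and 30925 in siMYCN with let-7a and siMYCN with miRCon, against 39241 and 38872 in siCon with let-7a and siCon with miRCon. Both siMYCN libraries lay below both siCon libraries. The changes were -14.0% with let-7a and -20.4% with miRCon. Averaged over both pairs, the log2 fold change of MT-CO1 was -0.27 ± 0.041 (SE, n = 4 libraries), and it passed limma's test (Benjamini-Hochberg adjusted p = 0.043).

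The other complex IV subunits of the mitochondrial genome were lower as well, without passing the test. MT-CO3 had 30796 and 27765 in the siMYCN libraries (let-7a, then miRCon), against 33781 and 32038 in the siCon libraries. MT-CO2, which takes electrons from cytochrome c, had 23791 and 23243 with siMYCN and 26136 and 25288 with siCon. Neither gene's siMYCN and siCon values overlapped, and limma gave Benjamini-Hochberg adjusted p-values of 0.0669 for MT-CO3 and 0.0933 for MT-CO2.

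Among the 7 complex I subunits, the extent differed from gene to gene. MT-ND1, which forms part of the quinone-binding site, had 11210 and 10134 with siMYCN and 12473 and 11939 with siCon. MT-ND4, a proton-pumping subunit, had 21664 and 21910 with siMYCN and 24515 and 24375 with siCon. Their log2 fold changes over both pairs were -0.20 ± 0.040 for MT-ND1 and -0.17 ± 0.034 for MT-ND4 (SE, n = 4 libraries), both at an adjusted p of 0.0634 in limma with Benjamini-Hochberg adjustment. MT-ND2 and MT-ND4L were also lower in both pairs, at -0.14 and -0.15 over both pairs. MT-ND3, MT-ND5 and MT-ND6, by contrast, were at -0.036, -0.028 and -0.014 over both pairs, with the MT-ND6 pairs at -0.061 with let-7a and 0.033 with miRCon. For MT-ND5, the lowest of all 13, the 4 values spanned only 6103 to 6346.

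MT-CYB, cytochrome b of complex III, had 13331 and 12753 with siMYCN and 13221 and 12694 with siCon. Its log2 fold change was 0.0093 over both pairs, but it was -0.055 after rescaling by median ratios and -0.049 after rescaling to the total without mitochondrial transcripts, so its sign depended on the scaling. MT-ATP6 had 36090 and 35934 with siMYCN and 40537 and 39048 with siCon. MT-ATP8 had 34075 and 33680 with siMYCN and 36462 and 37626 with siCon. Neither ATP synthase gene's values overlapped between siMYCN and siCon, and their log2 fold changes were -0.14 and -0.13.

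In all, 11 of the 13 mitochondrially encoded genes were lower in both pairs, against 27.4% of all genes tested, and 1 was higher in both, against 43.2% of all genes tested. After either rescaling 13 of 13 were lower in both pairs, as were 35.6% of all genes tested under median ratios and 34.7% under the total without mitochondrial transcripts. The median log2 fold change was -0.14 over the 13 genes and 0.056 over all genes tested. At an unadjusted p under 0.05 in limma there were 9 of 13 genes (26.4% of all genes tested), and 1 of 13 was called lower (1.36% of all genes tested). With values rescaled by median ratios 9 of the 13 were called lower (4.38% of all genes tested), and with values rescaled to the total without mitochondrial transcripts 7 were (2.79%). The 13 genes share precursor transcripts and one genome, so they are not separate observations of the treatment.

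**Figure D1:**
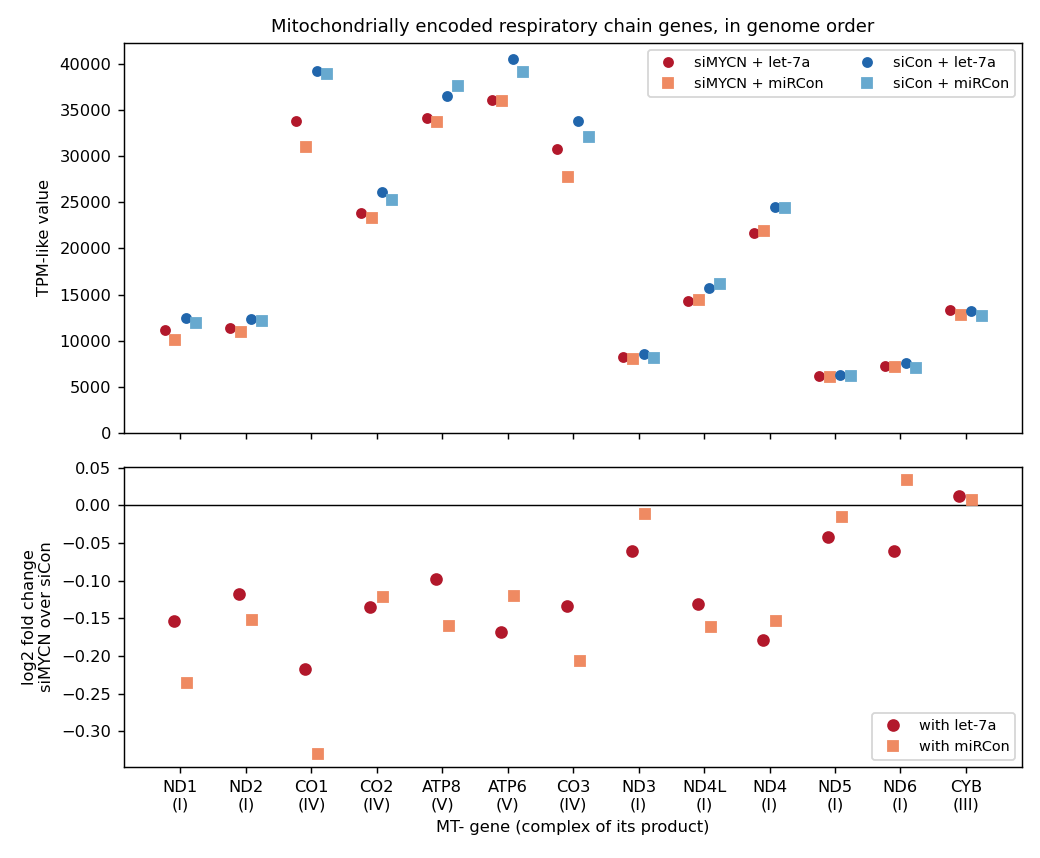
TPM-like values (upper panel) and log2 fold changes of siMYCN over siCon in each pair of libraries (lower panel) for the 13 mitochondrially encoded genes in genome order, with the complex of each product in brackets. Each point is 1 library or 1 pair. MT-CO1 has the lowest fold changes, and MT-CYB, MT-ND3, MT-ND5 and MT-ND6 lie near 0, MT-CYB with a sign that turned negative under both rescalings.

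The plot of the mitochondrial genes in genome order shows small and large differences side by side. MT-ND3, with -0.061 and -0.012, stands between MT-CO3, with -0.13 and -0.21, and MT-ND4L, with -0.13 and -0.16 (each with let-7a and with miRCon). The departure between the 2 siMYCN pairs had a median size of 0.048 over the mitochondrial genes, against 0.19 over all genes tested. It was 0.11 over all genes with a mean above 100, and the mitochondrial genes lay far above that level.

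Set against the nuclear subunits of the same library, the mitochondrial sum was lower with siMYCN. The 13 mitochondrial genes summed to 252118 and 243114 in the siMYCN libraries and to 276958 and 271547 in the siCon libraries. The 71 nuclear rows that passed the filter on low values summed to 14931 and 15031 with siMYCN and to 14812 and 14691 with siCon. The ratio of the sums was 16.9 in siMYCN with let-7a and 16.2 in siMYCN with miRCon, against 18.7 in siCon with let-7a and 18.5 in siCon with miRCon. The siMYCN and siCon ratios did not overlap. The ratio does not depend on how a library is scaled. Its log2 change with siMYCN was -0.15 with let-7a and -0.19 with miRCon. The two-sided exact permutation test over the 4 libraries gave p = 0.333, which is the smallest p that this design allows.

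By complex, the ratio differed most in complex IV. It was 20.4 and 18.9 in the siMYCN libraries against 24.0 and 23.9 in the siCon libraries for complex IV. For complex I it was 17.7 and 17.2 with siMYCN against 19.5 and 19.05 with siCon. In complex V the ratio was 16.6 and 16.4 with siMYCN against 17.7 in both siCon libraries. Complexes I, IV and V thus had no overlap between siMYCN and siCon, an order that was not tested by complex. For complex III, where MT-CYB is the single mitochondrial gene, the ratio was 8.63 and 8.01 with siMYCN and 8.64 and 8.59 with siCon.

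**Figure D2:**
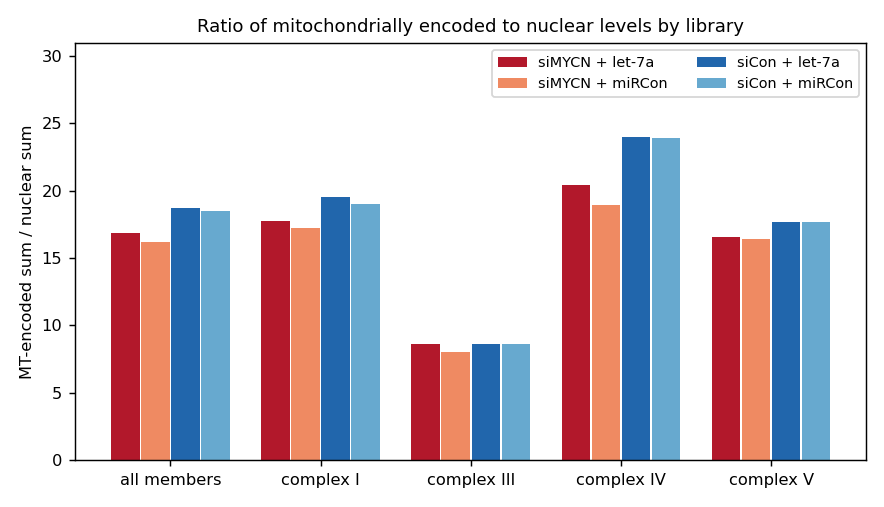
Ratio of the summed TPM-like values of mitochondrially encoded genes to those of nuclear members that passed the filter, for all members and for each complex that has both kinds; each bar is 1 library. The siMYCN bars are below the siCon bars for all members and for complexes I, IV and V, while in complex III siMYCN with let-7a (8.63) stands beside the siCon libraries (8.64 and 8.59).

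The nuclear members moved little as a group. Of 89 nuclear rows, 71 passed the filter, and 18 did not. With siMYCN, 26 of the 71 were higher in both pairs (43.2% of all genes tested were) and 20 were lower in both (27.4% of all genes tested). The other 25 differed in sign between the pairs, as did 2739 of all 9324 genes tested. The median log2 fold change of the 71 was 0.010, against 0.056 over all genes tested. It turned to -0.052 with values rescaled by median ratios and to -0.047 with values rescaled to the total without mitochondrial transcripts. There the medians of all genes tested were -0.0053 and 0.00024. Rescaling also turned the split, to 32 lower and 18 higher by median ratios, and to 32 lower and 20 higher by the total without mitochondrial transcripts. The split of all genes tested moved too, to 35.6% lower and 34.6% higher by median ratios, and to 34.7% lower and 35.5% higher by the total without mitochondrial transcripts. By limma, 1 of the 71 was called higher (2.07% of all genes tested) and 0 were called lower (1.36% of all genes tested), with 18 at an unadjusted p under 0.05 (26.4% of all genes tested). Under median ratios the nuclear calls were 2 higher and 5 lower, where 3.57% of all genes tested were called higher and 4.38% lower. Under the total without mitochondrial transcripts they were 0 higher and 2 lower, where 2.14% of all genes tested were called higher and 2.79% lower.

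**Figure D3:**
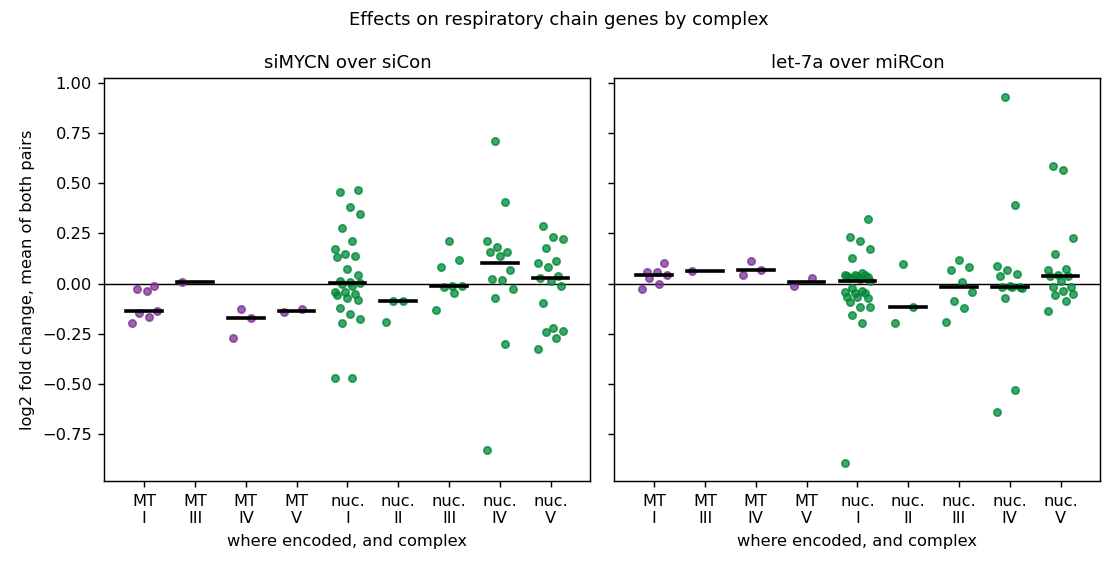
Log2 fold changes, mean of both pairs, of every respiratory chain gene tested (dots), by genome of origin (MT or nuclear) and complex, for siMYCN over siCon (left) and let-7a over miRCon (right); bars are medians. On the left the mitochondrial dots lie in a narrow band at or below 0, and the nuclear dots spread around 0, with complex medians from -0.089 (II) to 0.10 (IV) of which those of complexes I and V turn negative under both rescalings.

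The called nuclear gene was NDUFA7, an accessory subunit of complex I, on chromosome 19 from 8308768 to 8321396 on the minus strand (GRCh38). Its TPM-like value was 118 in siMYCN with let-7a and 103 in siMYCN with miRCon, against 86.4 in siCon with let-7a and 73.5 in siCon with miRCon. All siMYCN values were above all siCon values. The pairs' log2 fold changes were 0.45 with let-7a and 0.48 with miRCon, and the value over both was 0.47 ± 0.079 (SE, n = 4 libraries). NDUFA7 rose at a Benjamini-Hochberg adjusted p of 0.0495 in limma, close to the threshold, and it was called under 3 of 8 alternatives. Its adjusted p was 0.0516 with values rescaled to the total without mitochondrial transcripts.

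Promoter windows are shown for NDUFA7 and for 2 contrasting members: ATP5I, which holds the most of the searched motifs among the 3, and NDUFB1, a complex I gene with lower values in the siMYCN libraries, which holds none. They run from 250 bases before to 50 after the start of the gene in RefSeq (GRCh38.p14), at chr19:8321326-8321625, chr4:674227-674526 and chr14:92121657-92121956, all on the minus strand. Capitals mark matches on either strand to the E-box CACGTG, which MYC proteins bind together with MAX, and to words of 3 kinds of factor known for respiratory genes: AAGATGGC for YY1, CCGGAAG for ETS factors such as GABP, and for NRF1 the letters GCGCA, any base and GCGC in a row.

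NDUFA7: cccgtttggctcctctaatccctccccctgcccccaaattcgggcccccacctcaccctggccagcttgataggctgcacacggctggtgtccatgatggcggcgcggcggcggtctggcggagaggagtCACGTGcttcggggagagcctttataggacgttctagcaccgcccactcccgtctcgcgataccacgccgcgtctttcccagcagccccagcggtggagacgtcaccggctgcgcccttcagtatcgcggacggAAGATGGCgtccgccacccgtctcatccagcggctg
ATP5I: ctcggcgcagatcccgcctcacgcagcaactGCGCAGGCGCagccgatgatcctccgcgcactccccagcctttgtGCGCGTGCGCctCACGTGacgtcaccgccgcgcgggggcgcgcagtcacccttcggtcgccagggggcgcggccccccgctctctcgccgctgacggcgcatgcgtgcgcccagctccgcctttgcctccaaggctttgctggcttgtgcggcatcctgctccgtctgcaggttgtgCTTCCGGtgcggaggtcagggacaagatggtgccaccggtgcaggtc
NDUFB1: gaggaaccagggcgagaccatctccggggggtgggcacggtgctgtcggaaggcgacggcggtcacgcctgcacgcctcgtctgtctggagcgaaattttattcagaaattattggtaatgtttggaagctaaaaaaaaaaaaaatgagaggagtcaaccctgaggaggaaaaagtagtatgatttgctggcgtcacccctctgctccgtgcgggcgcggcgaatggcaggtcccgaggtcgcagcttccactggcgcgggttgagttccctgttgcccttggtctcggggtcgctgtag

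A promoter window was found for 70 of the 89 nuclear rows. The E-box was in 10.0% of these windows, against 13.3% for the 7738 genes tested that had one and 8.77% for all 27305 windows. The YY1 word was in 17.1% of the members' windows, against 7.33% for genes tested and 3.52% for all windows. The NRF1 word was in 22.9% of the members' windows, against 15.3% for genes tested and 6.98% for all. The ETS word was in 28.6% of the members' windows, against 24.5% for genes tested and 12.2% for all. A match describes letters in a window and is not a measured binding site. The 7 members with an E-box were ATP5G1, NDUFA7, UQCR11, NDUFS7, ATP5F1, ATP5I and NDUFA11, and the 6 of them that were tested had siMYCN log2 fold changes from -0.33 for ATP5F1 to 0.47 for NDUFA7. Their median was 0.22, against 0.013 for the 51 tested members with a window and no E-box. Of the 6, 3 were higher and 2 lower in both pairs (43.2% and 27.4% of all genes tested). For the ETS word the medians were 0.12 over 19 members with it and 0.012 over 38 without. They were 0.0065 (13 with) and 0.033 (44 without) for NRF1, and -0.0037 (8 with) and 0.022 (49 without) for YY1. None of these differences was tested.

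Complex I had 37 nuclear rows, 29 of which were tested, with a median siMYCN log2 fold change of 0.0013. NDUFS4, an accessory subunit known as a gene of Leigh syndrome, had 103 and 90.7 in the siMYCN libraries (let-7a, then miRCon), against 75.9 and 72.6 in the siCon libraries. NDUFS5, among the most abundant complex I mRNAs, had 404 and 407 with siMYCN and 327 and 310 with siCon. Both genes had siMYCN values above siCon values without overlap, at Benjamini-Hochberg adjusted p-values in limma of 0.0711 for NDUFS4 and 0.0507 for NDUFS5. NDUFB1, a small membrane-arm subunit whose promoter window held no searched word, had 47.2 and 49.3 with siMYCN and 61.5 and 73.7 with siCon. NDUFA2, an accessory subunit of the matrix arm, had 98.9 and 124 with siMYCN and 159 and 150 with siCon. Those siMYCN values lay below the siCon values without overlap, at limma adjusted p-values of 0.0655 for NDUFB1 and 0.0801 for NDUFA2 (Benjamini-Hochberg). NDUFB9 and NDUFB7, the other high complex I mRNAs, had siMYCN log2 fold changes of -0.0044 and -0.044. The 4 tested core subunits (NDUFS1, NDUFS3, NDUFS8 and NDUFV2), all of the matrix arm, lay between -0.080 and 0.14 over both pairs.

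For complex II, the succinate dehydrogenase, 3 of 4 genes were tested. SDHB, the iron-sulfur subunit, had 74.7 and 83.8 with siMYCN and 77.7 and 91.4 with siCon. SDHD, a membrane anchor, had 73.4 and 80.5 with siMYCN and 79.1 and 84.7 with siCon. The siMYCN and siCon ranges of both genes overlapped. SDHC, the other anchor, had 148 and 120 with siMYCN and 146 and 158 with siCon. None of the 3 was called for siMYCN or for let-7a in limma, and 0 were at an unadjusted p under 0.05. Of all genes tested, 26.4% were at such a p with siMYCN and 7.48% with let-7a.

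In complex III, UQCRH, the hinge protein next to cytochrome c1, had the highest values of the nuclear members, with 610 and 571 in the siMYCN libraries and 551 and 536 in the siCon libraries. UQCRH values with siMYCN lay above those with siCon, at a limma adjusted p of 0.237 (Benjamini-Hochberg). The Rieske iron-sulfur subunit UQCRFS1 had 67.5 and 66.9 with siMYCN and 69.4 and 69.5 with siCon. Of the 8 tested rows 6 differed in sign between the siMYCN pairs, UQCR10 and UQCRQ among them, as did 2739 of all 9324 genes tested. After either rescaling 4 of the 8 did. Among all genes tested 2782 of 9311 did under median ratios and 2776 of 9319 under the total without mitochondrial transcripts.

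Complex IV had a nuclear median of 0.10 with siMYCN, opposite in sign to its mitochondrial genes, and 0.040 and 0.045 after the 2 rescalings. COX6B1, which faces the intermembrane space, had 770 and 792 in the siMYCN libraries, against 672 and 675 in the siCon libraries. COX6A1, the ubiquitous form of subunit 6A, had 1071 and 1048 with siMYCN and 967 and 935 with siCon. COX7C, a small membrane subunit, had 509 and 482 with siMYCN and 445 and 429 with siCon. These 3 abundant mRNAs were each higher in both siMYCN libraries than in both siCon libraries, at limma adjusted p-values (Benjamini-Hochberg) of 0.0792 for COX6B1, 0.125 for COX6A1 and 0.121 for COX7C. COX5A, at 553 and 578 with siMYCN and 600 and 588 with siCon, was not higher. COX7A2L, a factor of supercomplex assembly related to subunit 7A, had 189 and 196 with siMYCN and 240 and 236 with siCon, at a limma adjusted p of 0.0683 (Benjamini-Hochberg). COX6C had 28.9 and 32.7 with siMYCN and 12.2 and 27.4 with siCon, so that its 2 siMYCN fold changes were unequal, at 1.18 with let-7a and 0.24 with miRCon.

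Complex V had 17 tested nuclear rows, with a median of 0.028 that turned negative under both rescalings (-0.035 and -0.030). ATP5I, a membrane subunit at the dimer interface, had 362 and 372 with siMYCN and 321 and 308 with siCon. ATP5J, coupling factor 6 of the stator, had 124 and 118 with siMYCN and 107 and 106 with siCon. ATP5O, the stator subunit that confers oligomycin sensitivity, had 306 and 328 with siMYCN and 365 and 384 with siCon. ATP5H, the stator subunit d, had 417 and 395 with siMYCN and 474 in each siCon library. The siMYCN and siCon values of these 4 did not overlap, with ATP5I and ATP5J higher and ATP5O and ATP5H lower with siMYCN. How many of all genes had such an order was not counted. Benjamini-Hochberg adjusted p-values in limma were 0.104 for ATP5I, 0.212 for ATP5J, 0.0807 for ATP5O and 0.0907 for ATP5H. The catalytic subunit ATP5B, the highest nuclear member, had 1217 and 1251 with siMYCN and 1307 and 1336 with siCon.

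**Figure D4:**
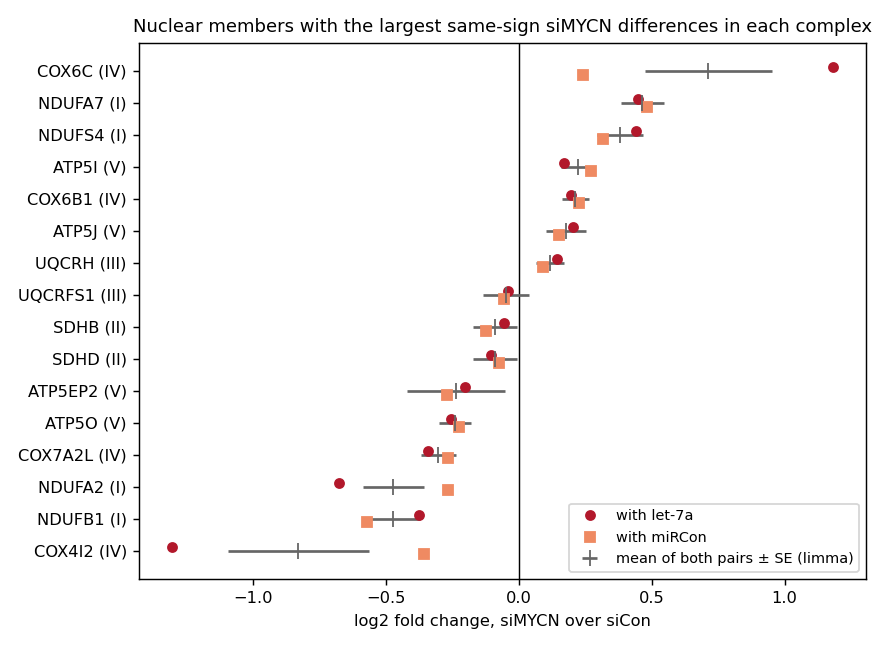
Log2 fold changes of siMYCN over siCon for the nuclear members with the largest differences of the same sign in both pairs of each complex (complex in brackets), with each pair as a point and the mean of both with its limma SE as a bar (n = 4 libraries). NDUFA7 at the right has close pairs (0.45 and 0.48), whereas COX6C and COX4I2 have pairs far apart (1.18 and 0.24 for COX6C, -1.30 and -0.36 for COX4I2).

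The plot of named nuclear members shows how closely the pairs matched. The median size of the departure between the 2 siMYCN pairs was 0.092 for the 43 nuclear members with a mean above 100, 0.19 for the 19 between 20 and 100, and 0.42 for the 9 between 5 and 20. It was 0.27 for all genes with a mean between 5 and 20 and 0.11 for all genes above 100.

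Differences between let-7a and miRCon were small for most members. No member was called in limma (0 of 84 tested, as 0% of all genes were in each direction), and 11 were at an unadjusted p under 0.05 (7.48% of all genes tested), namely 2 mitochondrial and 9 nuclear. Of the 13 mitochondrial genes 10 were higher with let-7a in both pairs (22.6% of all genes tested were) and 1, MT-ND4L, was lower in both (33.5% of all genes tested). Under rescaling by median ratios 11 were higher in both (27.3% of all genes tested) and 0 lower (28.1%). The mitochondrial median was 0.042 and that of all genes tested -0.031. MT-CO3 differed most, at 0.15 with siMYCN and 0.076 with siCon, and MT-ND1 was at 0.15 and 0.063. The values of MT-ND4 and MT-ATP8 over both pairs were -0.0040 and -0.014, and they turned to 0.023 and 0.013 under rescaling by median ratios. Of the 71 nuclear rows 18 were higher in both pairs and 20 were lower in both (22.6% and 33.5% of all genes tested), with a median of 0.0055. The ratio of mitochondrial to nuclear sums differed with let-7a by a log2 change of 0.062 with siMYCN and 0.017 with siCon, for which the two-sided exact permutation test gave p = 0.667 (the smallest possible is 0.333).

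Single nuclear members showed larger let-7a differences that repeated in both pairs without passing the test. NDUFA4L2, the hypoxia-linked counterpart of the complex IV subunit NDUFA4, had 199 in siMYCN with let-7a against 153 in siMYCN with miRCon, and 180 in siCon with let-7a against 136 in siCon with miRCon. Both let-7a libraries were higher than both miRCon libraries, with log2 fold changes of 0.38 and 0.41, an unadjusted p of 0.00185 and a Benjamini-Hochberg adjusted p of 0.663 in limma. NDUFA4 itself stayed between 241 and 247 in all 4 libraries. NDUFA13, also known as GRIM-19, had 5.29 against 9.95 in the siMYCN libraries and 4.31 against 9.55 in the siCon libraries (let-7a against miRCon in each). It was the only member at least 1.5-fold different the same way in both let-7a pairs (0.461% of all genes tested were). NDUFA13 had a limma adjusted p of 0.663 (Benjamini-Hochberg), and it stood near the low-value filter. NDUFA9 was higher with let-7a in both pairs, at 52.7 against 39.3 with siMYCN and 49.0 against 41.7 with siCon. NDUFC2 was lower in both, at 246 against 303 with siMYCN and 267 against 284 with siCon. UQCRC2, a core protein of complex III, was likewise lower, at 131 against 154 with siMYCN and 136 against 151 with siCon. SDHB had let-7a log2 fold changes of -0.16 and -0.23 with siMYCN and siCon, and SDHD had -0.13 and -0.098.

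Few members carry a let-7 seed site. The mature hsa-let-7a-5p of RefSeq is shown with its seed, bases 2 to 8, in capitals, and the labels do not give the sequence of the mimic itself. A match to the seed (CTACCTC, plus strand of the mRNA) was searched in the longest 3' UTR of each gene in GENCODE 29. It was in 3 of 70 nuclear members (4.29%), against 11.5% of the 9177 genes tested, whose 3' UTRs were longer (median 1505 bases, against 470 for the members). The 3 sites are shown in capitals with the bases around them in lower case, on GRCh38 at chr7:10932892-10932914, chr2:206119912-206119934 and chr2:175177010-175177032, all on the minus strand.

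hsa-let-7a-5p: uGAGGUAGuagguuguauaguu
NDUFA4: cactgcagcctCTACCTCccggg
NDUFS1: cccacgaggccCTACCTCcagca
ATP5G3: aggtagagctgCTACCTCgtttt

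None of these sites was followed by an A, the form that pairs most strongly, whereas 4.37% of genes tested had such a site. The let-7a log2 fold changes over both pairs were -0.017 for NDUFA4, -0.092 for NDUFS1 and 0.037 for ATP5G3. The median was -0.017 over these 3, 0.0055 over the members without a site, -0.070 over all genes with a site and -0.027 over all genes without one. NDUFA13 and NDUFA4L2 were not among the members with a site.

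Levels of the nuclear subunits spanned a wide range. The 74 canonical subunits (without isoforms, copies, read-through and related rows) had a median of 123 and a range of 2.40 to 1278. The highest in each complex were NDUFB9 (376), SDHC (143), UQCRH (567), COX6A1 (1005) and ATP5B (1278), each a mean of the 4 libraries. At the low end, 9 canonical subunits missed the filter, NDUFV1, SDHA and ATP5A1 among them. Closest to the filter were NDUFA13, at a mean of 7.27, inside it, and ATP5A1, at 4.43, outside it. ATP5A1 and ATP5B encode the alpha and beta subunits that alternate in equal number around the head of the ATP synthase. SDHA, the flavoprotein of complex II, had a mean of 2.40, beside 81.9 for its partner SDHB. NDUFV1, which binds NADH, had 6.77 and 3.93 with siMYCN and 1.61 and 0.831 with siCon, and these low values were not tested.

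**Figure D5:**
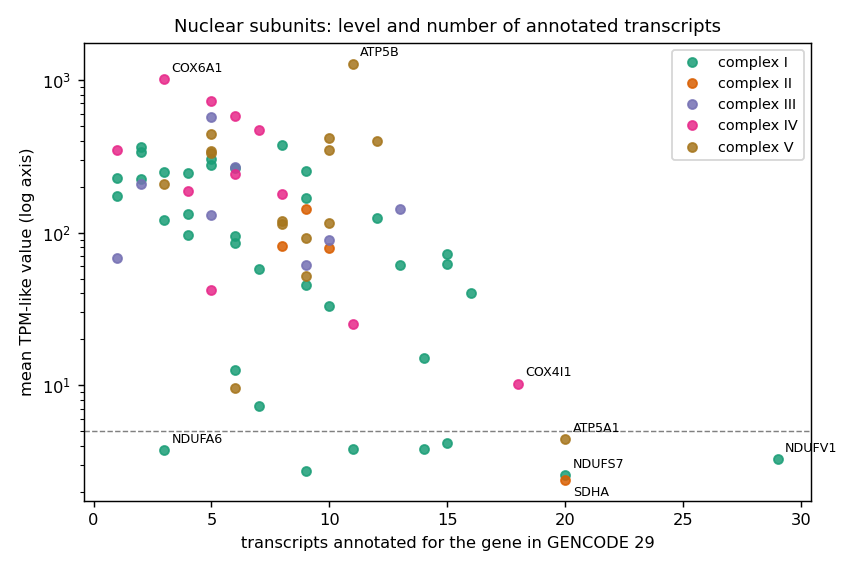
Mean TPM-like value over the 4 libraries (log axis) against the number of transcripts that GENCODE 29 annotates for the gene, for the 74 canonical nuclear subunits, coloured by complex; the dashed line is the filter on low values. Subunits with many annotated transcripts, such as NDUFV1, SDHA and ATP5A1, lie low, and ATP5B is an exception.

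The low values went with the number of annotated transcripts. The median was 225 for the 13 canonical subunits with 1 to 3 annotated transcripts, 143 for the 37 with 4 to 9 and 50.8 for the 24 with 10 or more. The subunits under the filter had a median of 15 annotated transcripts, and those past it had 6. Across the 74 genes Spearman's rho was -0.50, and across 15881 protein-coding genes with a value above 0 it was 0.13, both given as descriptions across genes that share libraries and annotation. Whether a deposited value covers all transcripts of a gene is not given in the sources used here, and it was not tested, so a low value of a gene with many transcripts is not read as low expression.

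The isoform sets showed one dominant form in most cases. COX6A1 had a mean of 1005 while COX6A2, the heart and muscle form, was listed at 0 in every library. COX6B1 had 727 and the testis form COX6B2 had 0.975. COX8A had 345 and COX8C 0.265, COX7B had 42.3 and COX7B2 was listed at 0. COX7A2, the liver-type form, had 180, against 0.776 for COX7A1, the muscle form. COX4I1 and COX4I2 were alike in level, at 10.3 and 11.2, and COX4I1 has 18 annotated transcripts. The 3 genes of the ring-forming subunit c differed, with ATP5G3 at 334, ATP5G1 at 116 and ATP5G2 at 52.2. UQCRHL, a copy of UQCRH, had 2.69 and ATP5EP2, a copy of ATP5E, had 8.11. Reads of near-identical copies can be divided between them, so the values of both copies are uncertain. The same holds for mitochondrial genes, whose sequence has nuclear copies.

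Genes that build or serve the chain were read from 10 lists with 154 rows, 146 of them tested. Of these, 4 were called lower (1.36% of all genes tested) and 2 higher (2.07%) with siMYCN, with 44 at an unadjusted p under 0.05 (26.4% of all genes tested). With let-7a 0 were called, with 14 at an unadjusted p under 0.05 (7.48% of all genes tested). Of the called genes, COQ9, SSBP1 and IDH3G have 16, 15 and 12 annotated transcripts, and SCO1, ETFB and TOMM20 have 5, 5 and 3. Whether the values of these genes cover all their transcripts is likewise not given. SCO1, a copper chaperone for the MT-CO2 site of complex IV, fell to 17.8 and 20.01 in the siMYCN libraries, against 35.4 and 32.8 in the siCon libraries (limma adjusted p = 0.0465, Benjamini-Hochberg). It was the single gene called of 24 tested complex IV assembly factors (1.36% of all genes tested were called lower and 2.07% higher). Of the 24, 12 were higher (43.2% of all genes tested) and 6 lower (27.4%) in both pairs. SURF1, another complex IV factor and a Leigh syndrome gene, had 2.99 and 3.86 with siMYCN and 16.6 and 8.53 with siCon, without passing the test (limma adjusted p = 0.0634, Benjamini-Hochberg).

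The list of electron carriers had 17 genes tested, with 2 called lower (1.36% of all genes tested). COQ9, needed for coenzyme Q synthesis, fell to 10.8 and 11.1 with siMYCN, against 21.6 and 23.4 with siCon. ETFB, a subunit of the electron transfer flavoprotein that feeds electrons from fatty acid oxidation into the chain, fell to 129 and 123 with siMYCN, against 170 and 182 with siCon. Limma adjusted p-values (Benjamini-Hochberg) were 0.0418 for COQ9 and 0.0469 for ETFB. Cytochrome c itself, CYCS, had 724 and 840 with siMYCN and 789 and 814 with siCon, with overlapping groups.

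For the upkeep and transcription of mitochondrial DNA, 17 genes were tested, of which 7 were higher (43.2% of all genes tested) and 4 lower (27.4%) in both siMYCN pairs. SSBP1, the mitochondrial single-stranded DNA-binding protein, rose to 78.9 and 71.5 with siMYCN, against 49.3 and 50.3 with siCon (limma adjusted p = 0.048, Benjamini-Hochberg). TFB2M, a transcription factor that opens mitochondrial promoters, had 71.7 and 69.2 with siMYCN and 55.7 and 51.1 with siCon, without passing (limma adjusted p = 0.074, Benjamini-Hochberg). TFAM and the polymerase POLRMT had log2 fold changes of -0.059 and -0.093 over both pairs, but the pairs of each differed in sign. TFAM was at 0.21 with let-7a and -0.32 with miRCon, and POLRMT at -0.23 with let-7a and 0.041 with miRCon. The 20 genes of mitochondrial RNA processing and stability had 0 calls in limma (1.36% of all genes tested were called lower and 2.07% higher). Their median was 0.0079, and an unadjusted p under 0.05 was seen for 4 (26.4% of all genes tested).

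Among the 10 nuclear regulators of respiratory genes, 0 were called (1.36% of all genes tested were called lower and 2.07% higher). An unadjusted p under 0.05 in limma was seen for 2 of them (26.4% of all genes tested). GABPA, the DNA-binding subunit of GABP, had 42.6 and 43.9 with siMYCN and 23.0 and 29.6 with siCon (limma adjusted p = 0.052, Benjamini-Hochberg). NRF1 had 20.9 and 23.2 with siMYCN and 19.5 and 20.7 with siCon. Of 26 genes of import, matrix and citric acid cycle, 1 was called in each direction (1.36% of all genes tested lower and 2.07% higher). TOMM20, a receptor of the outer membrane import complex, rose to 384 and 299 with siMYCN, against 171 and 174 with siCon (limma adjusted p = 0.0286, Benjamini-Hochberg). IDH3G, a subunit of the NAD-dependent isocitrate dehydrogenase, fell to 12.05 and 14.6 with siMYCN, against 24.5 and 31.6 with siCon (limma adjusted p = 0.0352, Benjamini-Hochberg).

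The lists of assembly factors of the other complexes, which for complex V also hold regulation, had no calls with siMYCN. Complex I factors had 0 of 16, with 2 at an unadjusted p under 0.05, complex II factors 0 of 4 with 0, and complex III factors 0 of 6 with 2. The list of complex V assembly and regulation had 0 of 6 with 2. Of all genes tested, 1.36% were called lower, 2.07% were called higher and 26.4% were at an unadjusted p under 0.05 in limma. ACAD9, a complex I assembly factor, had 6.70 and 8.44 with siMYCN and 13.6 and 15.1 with siCon, at a limma adjusted p of 0.0608 (Benjamini-Hochberg). C14orf2, a small protein of the ATP synthase, had 53.8 and 65.6 with siMYCN and 80.2 and 90.5 with siCon, just outside the threshold at a limma adjusted p of 0.0502 (Benjamini-Hochberg).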

How the data were processed

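PolyA RNA-seq of 4 libraries, 1 per group, was used. The deposited table holds natural log values of the authors (ln of value + 1). The base was settled from the values: back-transformed, a library sums to between 855811 and 862049, where base 2 would give 143211 to 147588. Per the submitters' processing notes, the tools were HISAT 0.1.6 and Salmon 0.3.2 and the build GRCh38; their roles are not stated there. How genes were annotated, filtered and log-transformed is not given in the sources used here. Depth is unknown, so no counting error is given.

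From 19837 rows, 11 vector and 92 spike-in rows were set apart, 28 rows carried calendar dates as names, and 19184 matched GENCODE 29. Genes with a mean of at least 5 (9324) were fitted on log2(value + 1) with limma 3.58.1 (R 4.3.3), eBayes with a trend, siRNA and mimic additive. Python 3.11.15, pandas 2.3.3 and NumPy 2.4.6 did the rest. The fit was also run on simulated data with additive effects and normal noise of the fit's own variances. Such data follow the model, so they cannot show how often calls in these libraries are false. Sums and ratios used members past the filter.

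Named genes were all mitochondrial members, called genes, in each complex the 3 nuclear members with the highest mean and, per treatment, up to 2 with the largest rise and 2 with the largest fall that both pairs share, isoform sets, and up to 4 genes of each other list. NDUFV1, TFAM, POLRMT, the 4 core subunits of complex I, and members named for an E-box, a let-7 site or a mean under the filter fall outside it and were chosen after their values were seen. Members and lists were chosen with earlier results of these data known. Alternatives were other pseudocounts, filters, scalings, variance models and single pairs.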

Additional observations from a re-analysis of the deposited data

Results flagged for a closer look

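COX4I1, the common form of complex IV subunit 4, differed in opposite directions between the 2 pairs of each treatment. The log2 fold change of siMYCN over siCon was -0.89 with let-7a and 1.70 with miRCon. The log2 fold change of let-7a over miRCon was -0.36 with siMYCN and 2.23 with siCon. The TPM-like values were 8.94 in siMYCN with let-7a, 11.8 in siMYCN with miRCon, 17.4 in siCon with let-7a and 2.93 in siCon with miRCon. The difference between the pairs was not tested, since each pair is 1 library against 1. The gene has a low level and 18 annotated transcripts.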

How the results depend on the processing

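The number of members called for siMYCN was 2 and ranged from 0 to 16 by setting, with the share of all genes called in brackets (3.43% as reported). It was 1 (MT-CO1) with a pseudocount of 0.1 (2.91%) or of 5 (2.61%), 0 without a filter or without a trend (0%), 0 by the rule of 1.5-fold in both pairs (4.46%), 5 with robust variance (4 lower; 3.36%), 8 with a mean of at least 20 (6 lower; 8.92%), 9 with values rescaled to the total without mitochondrial transcripts (all lower; 4.93%) and 16 with values rescaled by median ratios (14 lower; 7.95%). For let-7a, 0 members were called under every fitted setting, and 1 (NDUFA13) met the 1.5-fold rule (0.461% of all genes tested). The mitochondrial median for siMYCN was -0.14, and it was -0.15 in the miRCon pair alone, -0.20 under median ratios and -0.19 under the total without mitochondrial transcripts. The nuclear median of 0.010 turned to -0.052 and -0.047 under these 2 scalings. For let-7a, the mitochondrial median of 0.042 was 0.069 under median ratios, and the nuclear median of 0.0055 was -0.030 in the siMYCN pair alone. The sign turned for MT-CYB with siMYCN (-0.055 under median ratios, -0.049 without mitochondrial transcripts), for MT-ND4 with let-7a (0.023 and 0.0042) and for MT-ATP8 with let-7a (0.013 under median ratios). Each rescaling multiplies all values of a library by 1 factor, so the shift on the log2(value + 1) scale and the number of genes tested (9324, 9311 and 9319) vary with level. The cause of the changes was not tested. Among single-gene values under alternatives, 457 kept direction and side of the threshold, 28 newly passed it, 24 no longer did and 5 turned sign. MT-CO1 was called under 6 of 8 fitted alternatives, NDUFA7 under 3, and the other called genes under 4 to 6 of 7 or 8. The ratio of sums kept its sign under every alternative run. No paired analysis was possible because each group has 1 library and the labels carry no replicate numbers, that is, none by replicate number: the fit itself pairs libraries on the other treatment.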
